A study of Saccharomyces cerevisiae with 8 samples.

Results

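Gene expression in 3 Malaysian isolates of *Saccharomyces cerevisiae* was set against that in 2 wine/European isolates across the functions of the genome, leaving aside iron uptake, iron toxicity and ribosomal proteins. Every gene whose normalized read count averaged at least 10 over the 5 strains was compared, which gave 5792 of the 5797 genes in the table, and 1263 of them were sorted by function into 56 lists. The Malaysian strains, all diploids with a working *HO* gene, were UWOPS03.461.4, then UWOPS05.217.3 and last UWOPS05.227.2, and their values follow that order throughout. Of the wine/European strains, BC187 was likewise a diploid with *HO*, and RM11-1 came from a cross of RM11-1a with RM11-1b and carried *ura3* and *ho::kanMX*, with 1 mutant copy each of *lys2* and *leu2* by the study's strain list. All 5 are MATa/alpha and grew in the rich glucose medium YPD at 30 °C to mid-log phase (an optical density at 600 nm of 0.65 to 0.72), and poly-A RNA was sequenced from 1 culture and 1 library of each. The other 3 of the 8 samples in the series were hybrids between the populations and enter only as values beside those of the parents. Isolates stood in as replicates of their population, so the errors below are the spread between strains, and what is said of a population rests on these isolates. Each value describes a whole culture, so more RNA per cell and more cells that make it cannot be told apart.

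Yeast growing fast on glucose ferments it, keeps stress protection and carbohydrate stores low, and spends most of its transcription on ribosomes and glycolysis. The general stress response is switched on by the transcription factors Msn2p and Msn4p, which bind the element CCCCT, and it covers catalase, small heat shock proteins and the synthesis of trehalose and glycogen. Glycerol, made from a glycolytic intermediate by Gpd1p and Gpp1p, holds the cell's osmotic balance and its redox balance. Synthesis of amino acids follows the activator Gcn4p, which binds TGACTC, and in the lysine branch also Lys14p, while phosphate and zinc uptake each follow the cell's store of that nutrient.

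The scale of the comparison was log2(normalized read count + 1), on which changes of genes with low values are understated, and calls were made by limma at an adjusted *P* under 0.05 over all genes. By this test 630 of the 5792 genes (10.9%) differed between the populations. In Malaysian yeast 293 genes (5.06%) rose and 337 (5.82%) fell, and all strains of one population lay above all of the other at 1535 genes in favor of Malaysian yeast (26.5%) and at 1296 genes in favor of wine/European yeast (22.4%). The median log2 fold change of all genes was 0.028. The calls rest unequally on the strains. Without UWOPS03.461.4 there were 108 calls, without UWOPS05.227.2 there were 112, without UWOPS05.217.3 there were 493, without BC187 there were 696 and without RM11-1 there were 1012. All 630 genes kept their sign in each of these fits. With 1 wine/European strain left, the spread comes from the Malaysian strains alone and the lone strain is assumed to vary as they do. UWOPS03.461.4 and UWOPS05.227.2 were closest to each other, with a median absolute log2 difference of 0.085 across genes, whereas UWOPS05.217.3 differed from them by 0.176 and 0.166 and BC187 from RM11-1 by 0.252.

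**Figure D1:**
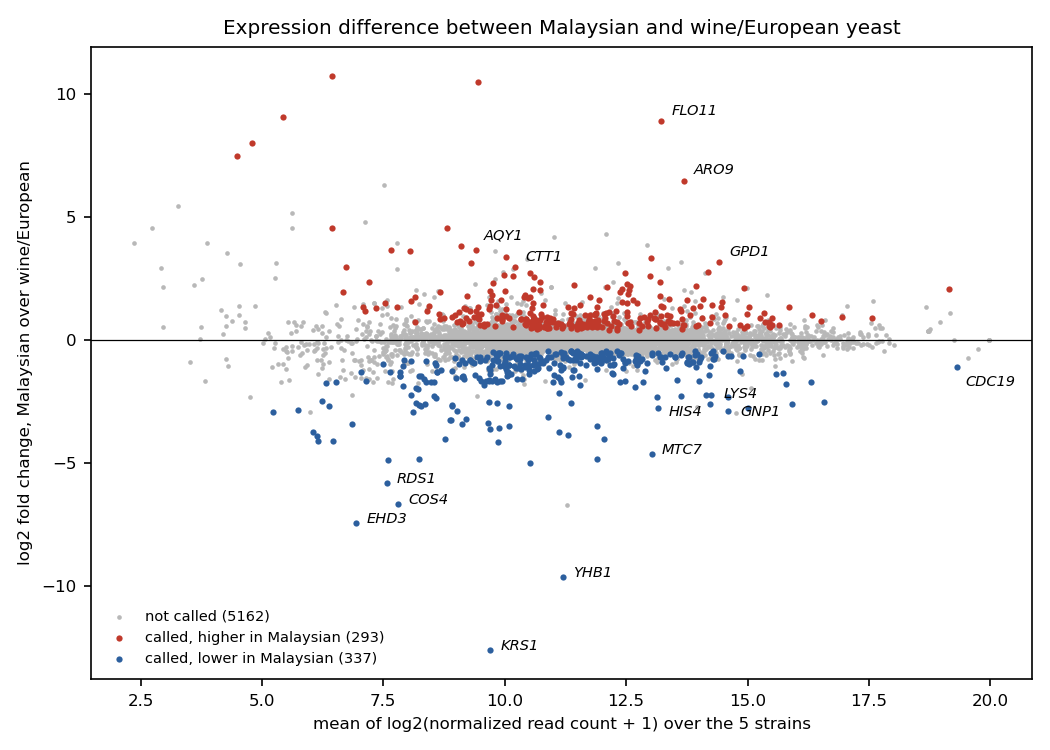
Each point is 1 of 5792 genes, placed by its mean log2(normalized read count + 1) over the 5 strains (x axis) and its log2 fold change of Malaysian over wine/European yeast (y axis). The 293 genes called higher in Malaysian yeast (red) and the 337 called lower (blue) lie at all levels. Among those labelled are *FLO11* (8.90), *ARO9* (6.48) and *GPD1* (3.16) above 0 and *YHB1* (-9.63) and *KRS1* (-12.62) below it.

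High values are tied. In every library 10 genes share the highest value, and the next 10 lie together between 1.06 and 1.49 lower on the log2 scale. Steps of at least 0.1 reach down to rank 140 in UWOPS03.461.4 and UWOPS05.217.3, to rank 120 in UWOPS05.227.2 and BC187 and to rank 80 in RM11-1. How these ties arose was not tested. Steps of this size also occur among low values, as at *URA3* (0.819). The 446 genes with such a step beside their value in any strain, high or low, held 63 of the calls. The other 5346 genes gave 556 calls when tested alone, so these counts do not describe the tied high values alone. The fold change of a gene in the top ranks cannot be finer than the steps there. *TKL1*, the transketolase of the pentose phosphate pathway, shared the highest value in all Malaysian strains (1090873, 991237 and 1028174), against 242297 in BC187 and 246692 in RM11-1. It rose by 2.08 on the log2 scale (SE 0.16, adjusted *P* = 0.00319 from limma) and was named after its values were seen. In both wine/European strains it lay in the third group of 10. The steps from the first group to the second and on to the third were 1.43 and 0.705 in BC187 and 1.494 and 0.514 in RM11-1. The change of *TKL1* therefore has the size of the spacing between these ties. *CDC19*, the pyruvate kinase of glycolysis, stood at 487223, 453631 and 496658 in Malaysian strains, against the highest value in both wine/European strains, 1064432 in BC187 and 992002 in RM11-1. Its change of -1.10 (SE 0.16, adjusted *P* = 0.0177 from limma) lies within the 1.06 to 1.49 that separate the first 2 ranks of ties.

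The labels were checked at the marker loci. *HO*, the mating-type switching endonuclease that RM11-1 lacks, had normalized read counts of 51, 119 and 127 in Malaysian strains, against 114 in BC187 and 0 in RM11-1. *URA3*, given as mutant in the label of RM11-1 alone, had 21, 29 and 30 in Malaysian strains, against 32 in BC187 and 101 in RM11-1. The library labelled *ura3* thus had the highest value, all 5 were low, and the difference was not called (adjusted *P* = 0.298 from limma). Whether these values go against the label was not tested. The study's strain list also holds *ura3* and *ho* deletion versions of the other isolates, and the genotypes used here are those of the labels.

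The largest changes outside iron and ribosomal proteins were spread over many functions. Among genes with at least 10 normalized reads in every strain and no overlap of the populations, those that rose most were, in order, *FLO11*, *ARO9*, YAR035C-A, *FMP48*, *AQY1*, *YKR104W*, *YIR042C*, *COS1*, *IRC7*, *GPD1*, YCL048W-A and *CTT1*. Those that fell most were *KRS1*, *YHB1*, *EHD3*, *COS4*, *RDS1*, *YAR064W*, *ARR1*, *MTC7*, *SPO21*, *AGP3*, *YPL277C* and *RDL1*. Log2 fold changes went from 2.96 to 8.90 among the first 12 and from -12.62 to -4.02 among the others.

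At several of these genes the populations lay far apart, although the wine/European strains also differed from each other at most of them. *AQY1*, a water channel of the plasma membrane, had normalized read counts of 2160, 1707 and 1722 in Malaysian strains, against 129 in BC187 and 169 in RM11-1 (log2 fold change 3.64, SE 0.19, adjusted *P* = 0.00094 from limma). *IRC7*, a cysteine-cleaving lyase that frees volatile thiols, had 17667, 23550 and 21552 in Malaysian strains, against 1359 in BC187 and 3069 in RM11-1 (3.35, SE 0.35, adjusted *P* = 0.00722 from limma). Both kept their call whichever strain was left out, and both also differed in the same direction between the alleles of all 3 hybrids, by 2.89 to 3.32 at *AQY1* and by 1.25 to 3.19 at *IRC7*. On the other side, *RDL1*, a thiosulfate sulfurtransferase, had 1429, 1232 and 1523 in Malaysian strains, against 15893 in BC187 and 31843 in RM11-1 (-4.02, SE 0.30, adjusted *P* = 0.00314 from limma), although its alleles in the hybrids differed by -0.14, 0.92 and 1.504. *ARR1*, the activator of arsenic resistance genes, had 90, 95 and 53 in Malaysian strains, against 1701 in BC187 and 3004 in RM11-1 (-4.86, SE 0.37, adjusted *P* = 0.00316 from limma).

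Some of the large changes lost their call when a strain was left out. *FMP48*, a mitochondrial protein kinase by its sequence, had 1906, 2314 and 884 in Malaysian strains, against 150 in BC187 and 82 in RM11-1, and its adjusted *P* from limma was 0.012 with all strains and 0.0623 without UWOPS03.461.4. *RDS1*, a zinc cluster regulator, had the widest spread within wine/European yeast of the 12 that fell, with 33, 50 and 30 in Malaysian strains, against 726 in BC187 and 6228 in RM11-1. The adjusted *P* of *RDS1* from limma was 0.0191 with all strains, 0.0872 when UWOPS03.461.4 was left out and 0.0828 when UWOPS05.227.2 was. *YPL277C* lost its call in 3 of the fits, at 0.1 without UWOPS03.461.4, 0.0674 without BC187 and 0.0591 without RM11-1.

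The parental difference was not always seen between alleles. *MTC7*, a gene of little known function, had 2347, 2342 and 2232 in Malaysian strains, against 61633 in BC187 and 53122 in RM11-1, a log2 fold change of -4.63 (SE 0.11, adjusted *P* = 0.000103 from limma). Its alleles in the 3 hybrids differed by only 0.15, -0.23 and -0.44.

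**Figure D2:**
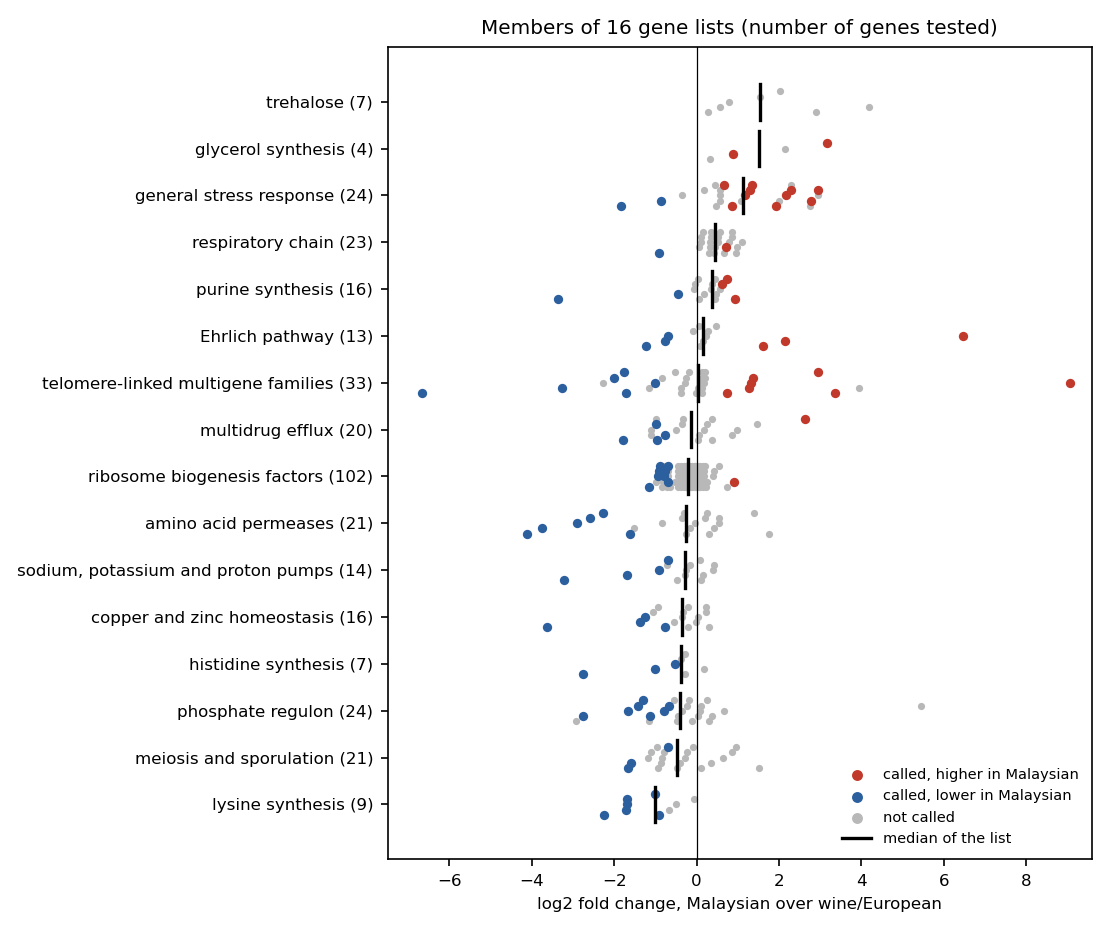
Log2 fold change of Malaysian over wine/European yeast (x axis) for each gene of 16 lists (1 list per row, number of genes tested in brackets, ordered by median), with called genes in red (higher) or blue (lower), others in gray, and a bar at the median. The stress response (median 1.12) and trehalose (1.54) lie right of 0, trehalose without a call, lysine synthesis (-1.02) lies left of it, and the place of *COS8*, farthest right and listed at 0 in wine/European strains, depends on the pseudocount.

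The general stress response leaned higher in Malaysian yeast. Of its 24 genes tested, 10 rose and 2 fell, against 10.9% called over all genes, and the median log2 fold change of the list was 1.12 beside 0.028 for all genes. *XBP1*, a repressor induced by stress, had normalized read counts of 638, 766 and 689 in Malaysian strains, against 182 in BC187 and 182 in RM11-1 (log2 fold change 1.93, SE 0.15, adjusted *P* = 0.00321 from limma). *HSP12*, a small membrane-bound heat shock protein, had 12567, 8152 and 13554 in Malaysian strains, against 2274 in BC187 and 2699 in RM11-1 (2.17, SE 0.24, adjusted *P* = 0.00882 from limma). *CTT1*, the cytosolic catalase, had 3724, 1393 and 3719 in Malaysian strains, against 213 in BC187 and 557 in RM11-1 (2.96, SE 0.60, adjusted *P* = 0.0376 from limma).

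UWOPS05.217.3 had the lowest Malaysian value of *HSP12* and *CTT1*, and its *CTT1* was still above that of both wine/European strains. The aldose reductase gene *GRE3* rose by 1.34 (SE 0.16, adjusted *P* = 0.0111 from limma). The other 6 risers, named after their values were seen, were *GRE2*, *HOR7*, *MSN2*, *PNC1*, *UGA2* and *ALD3*, with log2 fold changes between 0.67 at *MSN2* and 2.77 at *HOR7*, and 22.5% of the windows of *ALD3* recur elsewhere in the genome. *MSN2* itself, which encodes the activator, had 3535, 3528 and 3730 in Malaysian strains, against 2144 in BC187 and 2366 in RM11-1. The 2 that fell were *RTN2*, with 585, 321 and 499 in Malaysian strains, against 1284 in BC187 and 2075 in RM11-1, and *GND2*, with 231, 198 and 203 in Malaysian strains, against 382 in BC187 and 387 in RM11-1.

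The direction of the list was shared by all strains, and its calls were not. Its median log2 ratio was above 0 in each of the 6 pairings across populations, from 0.543 for UWOPS05.217.3 over RM11-1 to 1.646 for UWOPS03.461.4 over BC187. Of the 24 genes, 2 were called without UWOPS03.461.4, 2 without UWOPS05.227.2, 12 without UWOPS05.217.3, 8 without BC187 and 15 without RM11-1. *XBP1* and *HSP12* were called in all of these fits. In the hybrids, where both alleles share a cell, the median allelic log2 ratio of the 24 genes was 0.047, 0.136 and 0.152.

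Glycerol synthesis moved the same way. Both glycerol 3-phosphate dehydrogenase genes and both phosphatase genes were above 0, with a median of 1.52 over the 4. Of the 4 genes 2 rose, beside 5.06% rising over all genes. *GPD1*, the dehydrogenase induced by osmotic stress, had normalized read counts of 59539, 36036 and 67535 in Malaysian strains, against 3373 in BC187 and 10199 in RM11-1 (log2 fold change 3.16, SE 0.52, adjusted *P* = 0.0229 from limma). The phosphatase gene *GPP1* had 52646, 40946 and 56724 in Malaysian strains, against 29284 in BC187 and 24822 in RM11-1 (0.88, SE 0.18, adjusted *P* = 0.0389 from limma). Its paralog *GPP2*, at 2.15, missed the threshold (adjusted *P* = 0.065 from limma), and *GPD2*, the dehydrogenase that serves redox balance, stood at 0.33 (adjusted *P* = 0.432 from limma). No gene of the 4 was called without UWOPS03.461.4 or without UWOPS05.227.2, 3 were called without UWOPS05.217.3, and 1 each without BC187 and without RM11-1.

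The trehalose list showed high values without a call. All 7 trehalose genes had a log2 fold change above 0, with a median of 1.54, and none was called by limma, although 4 of the 7 had an unadjusted *P* under 0.05. *TPS3*, a regulatory subunit of trehalose synthase, came nearest, with 6280, 3125 and 5372 in Malaysian strains, against 1306 in BC187 and 2032 in RM11-1 (adjusted *P* = 0.0509 from limma). *TPS2*, the trehalose 6-phosphate phosphatase, was named after its values were seen. It had 48841 and 45908 in UWOPS03.461.4 and UWOPS05.227.2 but 5890 in UWOPS05.217.3, against 1493 in BC187 and 6657 in RM11-1, so that the populations overlap. The median of the list was -0.177 for UWOPS05.217.3 over RM11-1 and between 1.258 and 2.265 in the other pairings. With the median-ratio scaling 1 trehalose gene was called, and 2 were called without UWOPS05.217.3 and 3 without RM11-1.

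Among 13 glycogen genes 2 rose, beside 5.06% rising over all genes. The median was 0.794, though -0.462 for UWOPS05.217.3 over RM11-1. *UGP1*, which makes UDP-glucose for both stores and the wall, had 29785, 23239 and 31092 in Malaysian strains, against 7441 in BC187 and 10155 in RM11-1 (1.68, SE 0.20, adjusted *P* = 0.00996 from limma). *GLG2*, a glycogen primer, rose by 0.79 (SE 0.11, adjusted *P* = 0.0154 from limma). Both lost their call when UWOPS03.461.4 or UWOPS05.227.2 was left out (adjusted *P* of *UGP1* 0.0566 and 0.0551, and of *GLG2* 0.0914 and 0.0916), while 5 glycogen genes were called without UWOPS05.217.3 and 3 without BC187.

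**Figure D3:**
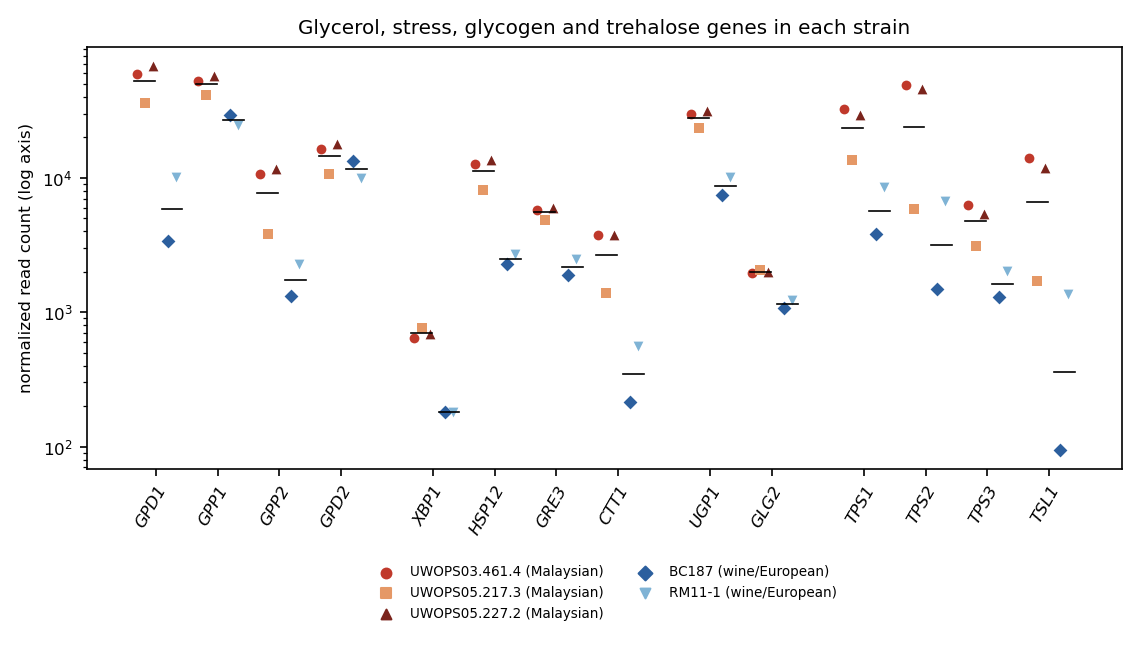
Normalized read counts of 14 genes of glycerol synthesis, stress response, glycogen and trehalose (log y axis), with 1 symbol per strain, Malaysian strains left of wine/European strains at each gene, and a bar at the mean of each population on the log scale. Populations are apart at *XBP1*, *HSP12*, *GRE3* and *UGP1*, and at *TPS2* UWOPS05.217.3 (5890) lies below RM11-1 (6657).

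Reference promoters of the stress genes show the Msn2p and Msn4p element. In the S288C sequence (RefSeq, assembly R64, not the sequence of these strains), CCCCT on either strand occurred in the 250 bases before the start codon of 54.2% of the stress list, of 31.2% of all genes that rose, of 17.9% of all that fell and of 18.7% of the genes tested. The 10 bases on each side of the match are given for 4 genes that rose, of which *GPD1* belongs to glycerol synthesis, with the match in capitals and its first base at 133, 34, 190 and 143 bases before the start codon in the order shown. *HSP12* holds a second match, at 232 bases.
CTT1: tttatcgtatCCCCTactgctacac
GPD1: gtacacccccCCCCTccacaaacac
HSP12: tccggtcgtcCCCCTcttgatctga
GRE3: tactacttctAGGGGgcctatcaag
In *GRE3* the match is on the opposite strand. Of the other stress genes that rose, *ALD3* and *PNC1* hold the letters in this window, and *XBP1*, *MSN2*, *HOR7*, *GRE2* and *UGA2* do not. Both stress genes that fell, *RTN2* and *GND2*, hold them too. So do *DDR2*, *DDR48*, *GAD1*, *TFS1*, *SOL4* and *DCS2*, which were not called, so the letters do not set the genes that rose apart within this list.

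Chaperones moved little and redox genes at a few members. Of 29 heat shock proteins and chaperones 3 rose and none fell, a share of calls near the 10.9% over all genes. Their median was 0.101 and became -0.033 without BC187. *SSA1*, a cytosolic Hsp70, had 13493, 10893 and 11601 in Malaysian strains, against 4871 in BC187 and 6265 in RM11-1 (1.11, SE 0.16, adjusted *P* = 0.0163 from limma), but 45.8% of its 100-base windows recur elsewhere in the reference genome, so that its reads could be shared with a near-identical copy. Of 33 antioxidant and thiol genes 5 rose and 1 fell, against 10.9% called over all genes. *GPX2*, a phospholipid hydroperoxide peroxidase, rose by 2.20 (SE 0.30, adjusted *P* = 0.015 from limma), with 26242, 40869 and 22096 in Malaysian strains, against 7505 in BC187 and 5206 in RM11-1. *MXR1*, a methionine sulfoxide reductase (0.90), and *DOT5*, a thiol peroxidase (0.69), rose too. *YHB1*, the flavohemoglobin that detoxifies nitric oxide, was the one that fell, with 209, 140 and 144 in Malaysian strains, against 136407 in BC187 and 120863 in RM11-1. Without UWOPS03.461.4 no chaperone and 1 antioxidant gene were called, and without UWOPS05.227.2 none and 2. Chaperones had 8 calls without BC187 and 9 without RM11-1, and antioxidant genes had 10 without RM11-1.

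Lysine synthesis was lower in Malaysian yeast. Of its 9 genes 6 fell, beside 5.82% falling over all genes. None rose and none was above 0, with a median log2 fold change of -1.02. *LYS4*, homoaconitase, had normalized read counts of 9782, 11403 and 10077 in Malaysian strains, against 64747 in BC187 and 38278 in RM11-1 (log2 fold change -2.26, SE 0.24, adjusted *P* = 0.00722 from limma). *LYS12*, homoisocitrate dehydrogenase, had 4354, 4919 and 4428 in Malaysian strains, against 17924 in BC187 and 12617 in RM11-1 (-1.72, SE 0.17, adjusted *P* = 0.00644 from limma). *LYS5*, which activates the aminoadipate reductase, fell by 1.02 (SE 0.16, adjusted *P* = 0.0208 from limma). At all 3 genes every Malaysian strain lay below both wine/European strains.

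The 3 further members that fell, named after their values were seen, were the homocitrate synthases *LYS20* (-1.70) and *LYS21* (-0.92) and saccharopine dehydrogenase *LYS1* (-1.68). *LYS20* and *LYS21* are paralogs, and 24.4% and 23.7% of their 100-base windows are repeated. *LYS2*, of which RM11-1 has 1 mutant copy, was not called, with 3010, 3347 and 3023 in Malaysian strains, against 7796 in BC187 and 2465 in RM11-1, and here the populations overlap. *LYS14*, the activator of the pathway, did not follow its targets, with 3384, 3687 and 3051 in Malaysian strains, against 3657 in BC187 and 3405 in RM11-1, and a log2 fold change of -0.07 (adjusted *P* = 0.732 from limma). In each of the 6 pairings the median of the list was below 0, from -1.373 for UWOPS03.461.4 over BC187 to -0.885 for the same strain over RM11-1. Calls numbered 2 without UWOPS03.461.4, 2 without UWOPS05.227.2, 4 without UWOPS05.217.3, 6 without BC187 and 8 without RM11-1, and *LYS4* and *LYS12* were called each time. Between the alleles of the 3 hybrids the median of the 9 genes was -0.123, -0.016 and -0.265, and at *LYS4* the alleles differed by -0.02, -0.02 and 0.12.

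Letters of the Lys14p type, TCCNNNGGA (the same on both strands), occurred before 4 of the 9 lysine genes (44.4%) and before 2.68% of all genes tested. This motif was chosen after the values were seen. The matches of *LYS1* and *LYS12*, which fell, and of *LYS9*, which did not pass the test, are shown with 10 reference bases on each side, their first capital lying 196, 182 and 225 bases before the start codon.
LYS1: atttttttttTCCAGCGGAatttggaatt
LYS12: ttcactttttTCCCGTGGAaaaatattct
LYS9: gaatcgaaatTCCGTTGGAaaaattcgct
*LYS4*, which fell most, holds no match in this window, and neither do *LYS5*, *LYS20* and *LYS21*.

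Histidine and arginine synthesis fell in part. Of 7 histidine genes 3 fell, beside 5.82% falling over all genes, with a median of -0.375. *HIS4*, which carries several steps of the pathway in a single protein, had 5292, 3210 and 4618 in Malaysian strains, against 24958 in BC187 and 33205 in RM11-1 (log2 fold change -2.75, SE 0.25, adjusted *P* = 0.0047 from limma). The Malaysian values are all below the wine/European ones. *HIS5* fell by 1.02 (SE 0.12, adjusted *P* = 0.00887 from limma) and *HIS1* by 0.52 (SE 0.10, adjusted *P* = 0.0315 from limma). *HIS4* kept its call in every fit with a strain left out, *HIS5* lost it without UWOPS05.227.2 (0.0638), and *HIS1* kept it only without RM11-1, which left 1 call in the list without UWOPS05.227.2. At *HIS4* the alleles of the hybrids differed by -1.44, -1.47 and -1.23, and at *HIS5* by -0.95, -0.99 and -0.99.

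The Gcn4p element TGACTC stood before 85.7% of the histidine genes on either strand and before 6.39% of all genes tested. It is shown, as above, for the members that fell, with its first base 199, 202 and 183 bases before the start codon, and *HIS4* holds another at 243 bases.
HIS4: ccatgcacagTGACTCacgttttttt
HIS5: ttggatctgtTGACTCacttcaattg
HIS1: gcttccaagtGAGTCAcctctaccgt
In *HIS1* it is on the opposite strand. *HIS3*, *HIS6* and *HIS7*, which were not called, hold the letters too. *GCN4* itself, named after its values were seen, had 37297, 34212 and 35983 in Malaysian strains, against 46885 in BC187 and 45986 in RM11-1, and was not called (-0.37, adjusted *P* = 0.0838 from limma).

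Of 16 arginine and proline genes 4 fell, against 5.82% falling over all genes, and the median was -0.289. *ARG1* fell by 1.39 (SE 0.23, adjusted *P* = 0.0244 from limma) and *ARG7* by 0.82 (SE 0.10, adjusted *P* = 0.0118 from limma). Without UWOPS03.461.4 or without UWOPS05.227.2 only 1 gene of this list was called, and 2 genes were called without UWOPS05.217.3.

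The remaining amino acid lists had few and mixed calls. Branched-chain synthesis had 2 genes of 12 that rose, *LEU1* (1.64) and *BAT2* (1.62). Serine, glycine and threonine synthesis had *SER3*, phosphoglycerate dehydrogenase, which rose by 2.60 (SE 0.36, adjusted *P* = 0.015 from limma) with 20787, 10564 and 21003 in Malaysian strains, against 2256 in BC187 and 3331 in RM11-1, and *GLY1*, which fell by 0.65. *SER3* overlaps the noncoding RNA *SRG1*, and without strand information their reads cannot be told apart. Of 12 aromatic genes *TYR1* rose by 0.68 and *ARO3* fell by 0.62, and of 10 genes of glutamate, glutamine and asparagine synthesis *ALT1* rose by 0.88 and *ALT2*, its paralog, fell by 0.81. In these 4 lists no gene was called without UWOPS03.461.4 or without UWOPS05.227.2, and branched-chain synthesis had 5 calls without BC187 and 4 without RM11-1. Of 32 sulfur genes 4 fell and none rose, beside 5.82% falling and 10.9% called in either direction over all genes. *SUL1*, the sulfate permease, had 51, 36 and 46 in Malaysian strains, against 462 in BC187 and 495 in RM11-1 (-3.42, SE 0.27, adjusted *P* = 0.00321 from limma), and was called whichever strain was left out. *MHT1*, a homocysteine methyltransferase (-0.96), *MET2* (-0.54) and *MET7* (-0.46, named after its values were seen) fell as well, and without UWOPS03.461.4 or UWOPS05.227.2 only *SUL1* was called.

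Several permeases that bring amino acids in fell as well. Of 21 permeases 6 fell and none rose, against 5.82% falling over all genes, while 8 were above 0. The median was -0.269, and by pairing it went from -0.905 for UWOPS05.217.3 over RM11-1 to 0.17 for UWOPS05.227.2 over BC187. *GNP1*, the high-affinity glutamine permease, had normalized read counts of 11290, 11317 and 10621 in Malaysian strains, against 68242 in BC187 and 101569 in RM11-1 (log2 fold change -2.91, SE 0.19, adjusted *P* = 0.00191 from limma). *LYP1*, the lysine permease, had 9164, 8466 and 10408 in Malaysian strains, against 71836 in BC187 and 43697 in RM11-1 (-2.59, SE 0.23, adjusted *P* = 0.00463 from limma). *MMP1*, the S-methylmethionine permease, had 922, 549 and 962 in Malaysian strains, against 9397 in BC187 and 11870 in RM11-1 (-3.75, SE 0.28, adjusted *P* = 0.00314 from limma).

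At these 3 permeases the populations are far apart. They were called whichever strain was left out, and the alleles of the hybrids differed the same way, by -2.83 to -2.97 at *GNP1*, by -0.80 to -1.49 at *LYP1* and by -2.49 to -2.52 at *MMP1*. *AGP3* had 32, 16 and 20 in Malaysian strains, against 268 in BC187 and 579 in RM11-1. The broad-range permease *BAP2* (-2.27) and the S-adenosylmethionine permease *SAM3* (-1.62), named after their values were seen, also fell. Leaving out UWOPS05.227.2 left 3 calls in the list and leaving out any other strain left 4 to 7.

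In the Ehrlich pathway, which turns amino acids into fusel alcohols, the transaminases split. Besides *ARO9*, the inducible aromatic transaminase, 2 genes rose, *ARO10*, the phenylpyruvate decarboxylase, and *BAT2*, the cytosolic branched-chain transaminase. *ARO10* had 8940, 5842 and 9848 in Malaysian strains, against 1360 in BC187 and 2387 in RM11-1 (2.15, SE 0.32, adjusted *P* = 0.0183 from limma). The 3 that fell of the 13 tested were *ARO8*, the constitutive aromatic transaminase (-0.70), the acetyltransferase gene *ATF2* (-1.22) and *ADH4* (-0.76). Over all genes 5.06% rose and 5.82% fell. *ARO80*, the activator of *ARO9* and *ARO10*, was not called, with 421, 384 and 300 in Malaysian strains, against 236 in BC187 and 293 in RM11-1. At *ARO10* the alleles of the hybrids ran the other way, at -1.33, -1.09 and -1.64. No gene of the list was called without UWOPS03.461.4 or without UWOPS05.227.2.

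The phosphate regulon was called lower in Malaysian yeast at 7 of 24 genes and higher at none, against 5.82% falling over all genes. The median was -0.399, while 8 genes were above 0, the highest at 5.46 and not called. *PHO81*, the inhibitor that switches the pathway on in low phosphate, had normalized read counts of 1643, 1853 and 1664 in Malaysian strains, against 3796 in BC187 and 3765 in RM11-1 (log2 fold change -1.14, SE 0.10, adjusted *P* = 0.00479 from limma), with little spread in either population. *VTC3* and *VTC4*, subunits of the vacuolar polyphosphate polymerase, fell by 1.42 (SE 0.13, adjusted *P* = 0.005 from limma) and by 0.78 (SE 0.13, adjusted *P* = 0.0262 from limma). *PHO84*, the high-affinity phosphate transporter, fell by 2.75 (SE 0.50, adjusted *P* = 0.031 from limma) and was named after its values were seen.

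*PHO84* also varied within Malaysian yeast, with 12106, 29156 and 10286, against 136764 in BC187 and 78427 in RM11-1. *PHO3*, *VTC1* and *PHO12* made up the 7, and 75.2% of the windows of *PHO12* recur in the genome. Only *PHO81* and *VTC3* were called without UWOPS03.461.4 or without UWOPS05.227.2. The alleles in the hybrids differed by -0.07, -0.03 and -0.02 at *PHO81* and by 0.06, 0.39 and 0.15 at *VTC3*.

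Zinc uptake was lower too. Of 16 copper and zinc genes 4 fell and none rose, beside 5.82% falling over all genes, with a median of -0.343. Of the 4 that fell 3 are zinc transporters. *ZRT1*, the high-affinity importer, had 307, 263 and 340 in Malaysian strains, against 6316 in BC187 and 2249 in RM11-1 (-3.64, SE 0.43, adjusted *P* = 0.0102 from limma). *ZRT2*, the low-affinity importer, had 4839, 5164 and 6024 in Malaysian strains, against 12928 in BC187 and 12500 in RM11-1 (-1.26, SE 0.13, adjusted *P* = 0.00644 from limma). BC187 had the higher of the wine/European values at both, and no Malaysian strain reached them. *ZRC1*, which loads the vacuole, fell by 1.38 (SE 0.18, adjusted *P* = 0.0123 from limma), and *ADH4*, the zinc-regulated alcohol dehydrogenase, was the fourth. *ZAP1*, the activator of zinc uptake, stood at -0.93 and was not called (adjusted *P* = 0.0538 from limma). *ZRT2* was called whichever strain was left out. The list had 1 call without UWOPS03.461.4, 2 without UWOPS05.227.2 and 7 without RM11-1.

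**Figure D4:**
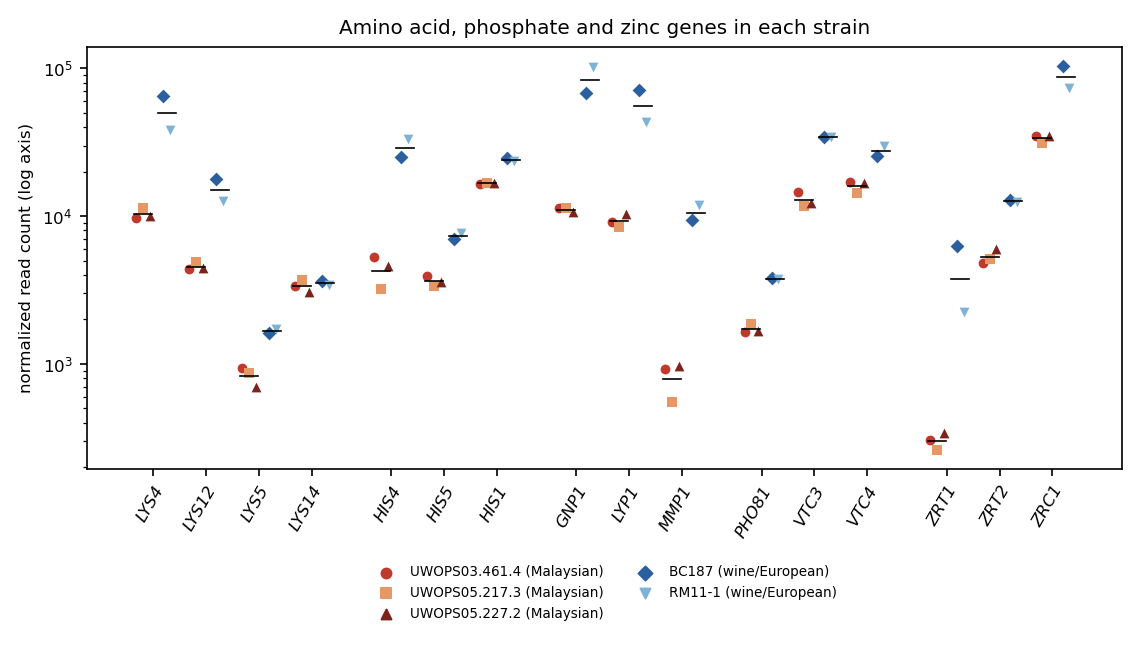
Normalized read counts of 16 genes of lysine and histidine synthesis, amino acid, phosphate and zinc transport (log y axis), with 1 symbol per strain, Malaysian strains left of wine/European strains at each gene, and a bar at the mean of each population on the log scale. The populations are apart at all genes shown except *LYS14* (-0.07).

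Pumps for sodium, potassium and protons fell at 4 of 14 genes, beside 5.82% falling over all genes. *ENA5*, a sodium pump, had 265, 224 and 234 in Malaysian strains, against 2679 in BC187 and 1907 in RM11-1 (-3.23, SE 0.19, adjusted *P* = 0.00159 from limma), but 87.8% of its windows recur in the genome. The plasma membrane ATPase *PMA2* fell by 1.70, the sodium and proton antiporter *NHA1* by 0.92 and the potassium transporter *TRK2* by 0.68. *ENA5* alone was called without UWOPS03.461.4 or without UWOPS05.227.2, and 2 genes were called without BC187.

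Drug efflux differed at single transporters, with 1 of 20 genes that rose and 4 that fell, against 10.9% called over all genes. *PDR5*, the main drug exporter of the plasma membrane, had 34566, 33427 and 34870 in Malaysian strains, against 117293 in BC187 and 120863 in RM11-1 (-1.80, SE 0.11, adjusted *P* = 0.00159 from limma). *RSB1*, a membrane protein for sphingoid base movement, had 2268, 2058 and 2012 in Malaysian strains, against 279 in BC187 and 410 in RM11-1 (2.64, SE 0.19, adjusted *P* = 0.0031 from limma). *YOR1* fell by 0.99 and *ATR1* by 0.97. *TPO3*, a polyamine exporter with 25.0% repeated windows, was the fourth that fell (-0.76). *PDR5* and *RSB1* were the only calls without UWOPS03.461.4 or without UWOPS05.227.2, and 8 genes were called without RM11-1. The alleles of *PDR5* in the hybrids differed by 0.07, -0.31 and -0.0014.

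Ribosome biogenesis leaned lower in Malaysian yeast, by small amounts. Of 102 assembly factors 8 fell and 1 rose, a share of calls below the 10.9% over all genes, while 76 were below 0 and the median was -0.203. *NOP16* fell by 0.90 (SE 0.17, adjusted *P* = 0.0347 from limma), with 4199, 5046 and 4132 in Malaysian strains, against 9627 in BC187 and 7092 in RM11-1. *RRP15* fell by 0.80 and *NOP53* by 0.77, and *UTP13* rose by 0.91 (SE 0.19, adjusted *P* = 0.0406 from limma). The median depended on the strains compared, from -0.555 for UWOPS03.461.4 over BC187 to 0.195 for UWOPS05.217.3 over RM11-1, and it was 0.029 without BC187. No factor was called without UWOPS03.461.4 or UWOPS05.227.2, 5 were called without UWOPS05.217.3, 4 without BC187 and 17 without RM11-1. The PAC element GATGAG stood before 88.2% of these genes and 17.0% of all genes tested. Among 22 aminoacyl-tRNA synthetases *FRS1* (0.69) and YDR341C (0.61) rose and *KRS1* fell, and of 31 RNA polymerase subunits *RET1* fell by 0.60. None of 40 translation factors was called by limma, although 9 had an unadjusted *P* under 0.05. Among the synthetases only *KRS1* was called without UWOPS03.461.4, without UWOPS05.227.2 or without BC187.

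The respiratory chain stood higher against 1 wine/European strain only. Of 23 subunits 22 had a log2 fold change above 0, with a median of 0.451, yet 1 rose and 1 fell. *COX12*, a subunit of cytochrome oxidase, had 14162, 12373 and 13317 in Malaysian strains, against 7144 in BC187 and 9045 in RM11-1 (0.72, SE 0.14, adjusted *P* = 0.0348 from limma). *QCR6*, of the cytochrome bc1 complex, fell by 0.90 (SE 0.19, adjusted *P* = 0.0413 from limma). Over BC187 the median ratio of the list was 0.98, 0.792 and 0.898 in the Malaysian strains, and over RM11-1 it was 0.065, -0.075 and 0.016. Without BC187 the median of the list was -0.016. Without RM11-1 16 of the 23 genes were called, without BC187 1 was, and none was without any 1 Malaysian strain. Mitochondrial ribosomal proteins had 1 call in 75 genes, *MRP10*, which fell by 0.88. Of 18 genes of the TCA cycle 1 rose and 1 fell, and *LPD1*, the dihydrolipoamide dehydrogenase, was the one that rose (0.70). Neither list had a call without UWOPS03.461.4 or without UWOPS05.227.2, and without RM11-1 there were 9 calls among mitochondrial ribosomal proteins and 7 in the TCA cycle.

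**Figure D5:**
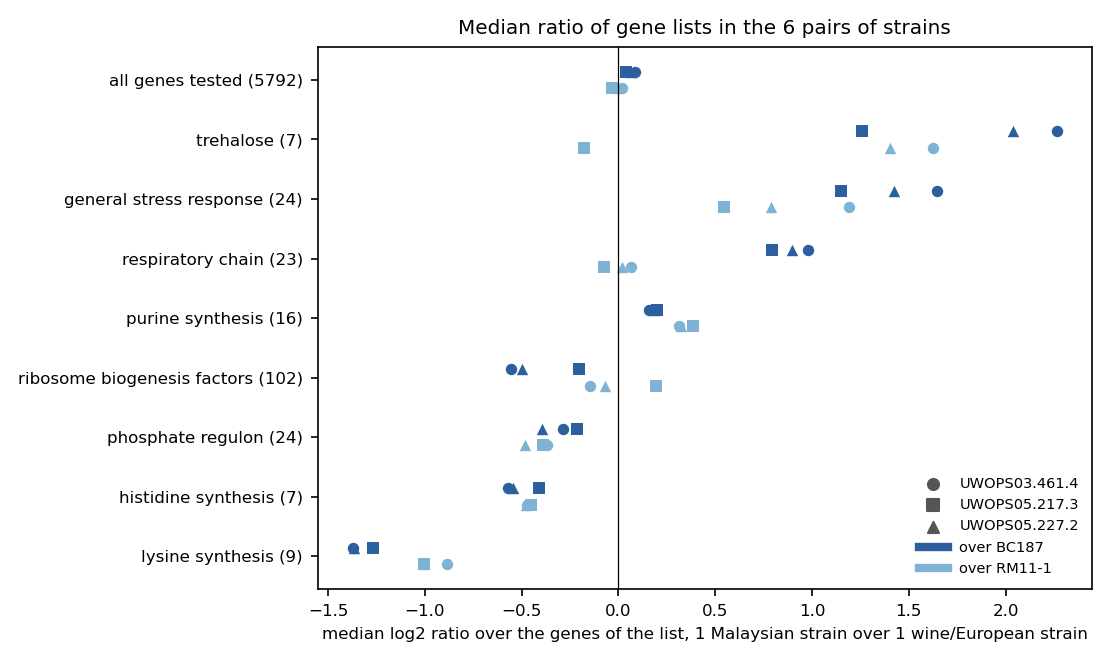
Median log2 ratio over the genes of 8 lists and of all genes tested (number of genes in brackets) for each of the 6 pairs of a Malaysian strain (symbol) over a wine/European strain (color). All 6 medians are above 0 for the stress response (0.543 to 1.646) and below 0 for lysine synthesis (-1.373 to -0.885), while the respiratory chain is above 0 by 0.792 or more over BC187 and between -0.075 and 0.065 over RM11-1.

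In carbon metabolism most calls were at regulators and transporters with low values. Of 20 hexose transporters and sensors *HXT8* rose by 1.34 and the glucose sensor *RGT2* fell by 1.02, with 631, 701 and 598 in Malaysian strains, against 1295 in BC187 and 1316 in RM11-1. Of 11 maltose genes 3 fell and 1 rose, against 10.9% called over all genes. *MAL31*, a maltose permease, had 177, 142 and 158 in Malaysian strains, against 699 in BC187 and 1316 in RM11-1 (-2.59, SE 0.30, adjusted *P* = 0.0096 from limma), and its partner regulator *MAL33* fell by 1.69. *MAL12*, which rose by 1.95, has 66.6% repeated windows. Of 18 genes of gluconeogenesis and acetate and ethanol use 1 rose (*ALD3*, 1.17) and 2 fell, with 14 above 0 and a median of 0.372. That median was 0.697, 0.481 and 0.6 over BC187 in the Malaysian strains, and 0.259, 0.023 and -0.028 over RM11-1. *CAT8*, the activator of gluconeogenesis, had 20, 29 and 20 in Malaysian strains, against 137 in BC187 and 724 in RM11-1 (-3.74, SE 0.74, adjusted *P* = 0.0359 from limma), and its target *ICL1* fell by 0.65. Of the galactose genes *GAL3* rose by 1.05 and *GAL80* fell by 0.70. Of these genes only *MAL31* was called without UWOPS03.461.4, and none was without UWOPS05.227.2. Without UWOPS05.217.3 1 maltose gene and no galactose gene was called, and without RM11-1 there were 7 calls among hexose transporters.

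Lipid genes differed at a few enzymes. Of 27 ergosterol genes 2 fell and 1 rose, a share of calls near the 10.9% over all genes, with 20 below 0 and a median of -0.413. Over BC187 the median was -0.589, -0.668 and -0.427 in the Malaysian strains, and over RM11-1 it was -0.123, -0.208 and -0.148. *ERG11*, the lanosterol demethylase that azole drugs block, had 53168, 43663 and 56982 in Malaysian strains, against 160834 in BC187 and 169683 in RM11-1 (-1.70, SE 0.16, adjusted *P* = 0.00489 from limma), and was the only gene of the list called without any 1 Malaysian strain. *ERG4* fell by 1.35 and *MVD1* rose by 0.54, and 10 genes of the list were called without RM11-1. In phospholipid synthesis *OPI3* (1.48) and the inositol transporter *ITR1* (1.32) rose. Of 38 genes of beta-oxidation and peroxisomes 5 rose and 2 fell, against 10.9% called over all genes. Among them were *PEX2* (1.10), *FOX2* (0.93) and *PEX35* (0.66), and *PEX27* (-0.69) and *PEX25* (-0.61). Neither phospholipid nor peroxisome genes had a call without UWOPS03.461.4 or without UWOPS05.227.2, and peroxisome genes had 4 without UWOPS05.217.3 and 4 without BC187. None of 17 fatty acid synthesis genes was called by limma, although 5 had an unadjusted *P* under 0.05.

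Purine synthesis rose at *ADE12*, *ADE16* and *IMD4* and fell at *IMD2* and *IMD3*. These are 5 of 16 genes, beside 10.9% called over all genes, and the median was 0.37. *IMD2*, an IMP dehydrogenase gene controlled by guanine nucleotide supply, has 9.3% repeated windows. It had 298, 447 and 239 in Malaysian strains, against 4582 in BC187 and 2325 in RM11-1 (-3.36, SE 0.38, adjusted *P* = 0.00893 from limma). *IMD4*, its paralog, had 169161, 134059 and 190688 in Malaysian strains, against 82116 in BC187 and 89329 in RM11-1 (0.93, SE 0.19, adjusted *P* = 0.0376 from limma), and holds the small nucleolar RNA *SNR54* in its intron. No gene of the list was called without UWOPS03.461.4, 1 was without UWOPS05.227.2, and 3 each without BC187 and without RM11-1. In the vitamin lists *THI73*, a transporter of the thiamine regulon, had 1672, 1771 and 1468 in Malaysian strains, against 425 in BC187 and 254 in RM11-1 (2.31, SE 0.24, adjusted *P* = 0.00713 from limma), and was called whichever strain was left out. *THI4*, which makes the thiazole of thiamine, fell by 1.08. *BNA3* (0.75) and *QNS1* (0.67) of NAD synthesis rose, and *BNA5* (-1.22) fell. Of the NAD and biotin genes none was called without UWOPS03.461.4 or UWOPS05.227.2, 1 was without UWOPS05.217.3 and 6 were without RM11-1.

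A few genes of meiosis fell in vegetative Malaysian cells. Of 21 meiotic and sporulation genes 3 fell and none rose, against 5.82% falling over all genes, with 15 below 0 and a median of -0.467. *IME2*, the kinase that drives entry into meiosis, had 213, 186 and 228 in Malaysian strains, against 598 in BC187 and 664 in RM11-1 (-1.59, SE 0.17, adjusted *P* = 0.00722 from limma). The sporulation kinase *SMK1* fell by 1.66 (SE 0.23, adjusted *P* = 0.015 from limma) and the middle-meiosis activator *NDT80* by 0.69 (SE 0.14, adjusted *P* = 0.0382 from limma). None was called without UWOPS03.461.4, where *IME2* had 0.0506, and *IME2* alone was called without UWOPS05.227.2. Of 21 mating genes that diploids repress 3 fell and none rose, against 5.82% falling over all genes. *FUS1* had 33, 36 and 43 in Malaysian strains, against 151 in BC187 and 294 in RM11-1 (-2.47, SE 0.40, adjusted *P* = 0.0214 from limma), and *AGA1*, with 211, 192 and 190 in Malaysian strains, against 553 in BC187 and 1671 in RM11-1, fell by 2.28. *FAR1*, the cell cycle brake of mating, fell by 1.51. No mating gene was called without UWOPS03.461.4 or UWOPS05.227.2, 2 were without UWOPS05.217.3 and 5 were without RM11-1. All 5 strains are labelled as diploids, and the part of ploidy or of mating-type switching in these 3 genes was not tested.

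In DNA replication 3 of 37 genes fell and none rose, a share of calls below the 10.9% over all genes. *RNR4*, a small subunit of ribonucleotide reductase, had 12186, 10257 and 12478 in Malaysian strains, against 24645 in BC187 and 25575 in RM11-1 (-1.11, SE 0.13, adjusted *P* = 0.00887 from limma). Its partner *RNR2* fell by 1.26 and the clamp loader gene *RFC1* by 0.80. In DNA repair *RAD16* (0.96) and *RAD4* (0.71) of nucleotide excision repair rose. The mismatch repair gene *MSH3* (-0.93) and the translesion polymerase genes *REV1* (-1.47) and *REV3* (-1.94) fell. These were the 5 calls among 36 repair genes, beside 10.9% called over all genes. No repair gene was called without UWOPS03.461.4 or without UWOPS05.227.2, and of the replication genes only *RNR4* was called without UWOPS05.227.2 and none without UWOPS03.461.4. Without BC187 7 replication genes were called, and without UWOPS05.217.3 or RM11-1 2 repair genes were.

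At the cell surface few genes were called, but some changed much. Of 40 wall genes 3 fell and 1 rose, a share no higher than the 10.9% over all genes. *TIP1*, a mannoprotein induced by cold, had normalized read counts of 453, 382 and 404 in Malaysian strains, against 4419 in BC187 and 4840 in RM11-1 (log2 fold change -3.49, SE 0.13, adjusted *P* = 0.000356 from limma), and was called whichever strain was left out. *PST1* fell by 2.57 and *TIR2* by 1.86, and *CWP1* rose by 1.02. *TIP1* alone was called without UWOPS03.461.4 or UWOPS05.227.2, and 8 wall genes were called without BC187. *FLO11*, the flocculin of adhesion and biofilms, has 15.4% repeated windows. It had 261985, 21506 and 257426 in Malaysian strains, against 929 in BC187 and 59 in RM11-1. Its alleles in the hybrids differed by 2.16, -6.80 and -8.15, opposite to the parents in both hybrids with BC187. *FLO1*, a flocculin with 37.1% repeated windows, was also called higher, with 28771, 2654 and 27069 in Malaysian strains, against 0 in BC187 and 77 in RM11-1. UWOPS05.217.3 was the lowest Malaysian strain at both, and neither was called without UWOPS03.461.4 or without UWOPS05.227.2.

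The COS and AAD families, many of them near chromosome ends, moved both ways. Of 33 genes named COS, AAD or PAU 7 rose and 6 fell, against 10.9% called over all genes. All 13 have COS or AAD names, with no PAU gene called. *COS111*, one of the 7, is counted by its name alone. It lies 181.24 kb from a chromosome end and has no repeated windows. *COS8* had 520, 533 and 547 in Malaysian strains and is listed at 0 in BC187 and RM11-1, so that no fold change is given. *COS4* had 32, 33 and 37 in Malaysian strains, against 4199 in BC187 and 3042 in RM11-1 (-6.68, SE 0.22, adjusted *P* = 0.000308 from limma), and *COS1* had 3207, 2238 and 2526 in Malaysian strains, against 206 in BC187 and 317 in RM11-1 (3.36, SE 0.25, adjusted *P* = 0.00313 from limma). In these families 21 members have more than 5% repeated windows, among them *COS4* (45.6%) and *COS1* (50.6%), and their reads could be divided among near-identical copies. *COS10*, with none, fell by 2.01, and *AAD14*, also with none, rose by 1.38. Without UWOPS03.461.4 there were 4 calls and without UWOPS05.227.2 there were 6.

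Protein turnover and the remaining lists had few calls. Of 34 proteasome genes *RPN14* (0.59) and *RPT3* (0.49) rose, and of 37 autophagy genes *ATG21* (0.81) and *ATG13* (0.59) rose and *ATG45* (-1.10) fell. Of 27 genes of nitrogen use *PUT2*, which breaks down proline, rose by 1.19, with 7037, 6601 and 7194 in Malaysian strains, against 2311 in BC187 and 4028 in RM11-1, and *UGA3* fell by 0.55. *STF2* of ATP synthase rose by 0.98, *IRE1*, the sensor of unfolded protein, fell by 0.61, and *URA4* of pyrimidine synthesis fell by 0.70. None of these was called without UWOPS03.461.4 or UWOPS05.227.2, and without RM11-1 there were 10 calls in nitrogen use and 8 in autophagy. No gene of the vacuolar proteases (10 genes), vacuolar ATPase (15) or histones (10) was called by limma, and 3, 0 and 3 of them had an unadjusted *P* under 0.05.

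Position went with the share of calls. Of 343 genes within 30 kb of a chromosome end in the S288C assembly, 30 rose and 44 fell (21.6%), against 10.2% of 5444 genes elsewhere. Among 258 genes with more than 5% repeated windows 14.3% were called, against 10.7% of 5529 others. In 12 places at least 3 neighbouring genes were called in the same direction. The longest, on chromosome IV, held 6 genes that fell, YDR034C-A, *CPP3*, *ARO3*, *EHD3*, *KRS1* and *ENA5*. *KRS1*, the cytosolic lysyl-tRNA synthetase, which is essential, had 45, 16 and 19 in Malaysian strains, against 161232 in BC187 and 153611 in RM11-1, and its alleles differed by -6.94, -7.35 and -6.75 in the hybrids. *LYS14* lies before this run, parted from it by a Ty element in S288C, and was not called. On chromosome X *HXT8*, YJL213W, *OPT1* and *PEX2* rose side by side, on chromosome VII *PHO81*, *YHB1* and *MIC26* fell, and on chromosome XII *AYT1*, *MHT1* and *MMP1* fell. Reads were counted where they matched an amended low-coverage genome of the strain without mismatch, and the part of this step in values near 0 was not tested.

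The alleles of the hybrids shared the direction of the parents at many called genes. Of 629 called genes measured in the hybrids, 444 (70.6%) had the parental sign in all 3, against 2413 of 5738 genes tested (42.1%), and 40 (6.36%) had the opposite sign in all 3, against 880 (15.3%). The median allelic log2 ratio was between 0.405 and 0.424 for genes that rose and between -0.499 and -0.427 for genes that fell. Because the hybrids' values were normalized apart from those of the parents, levels were not compared between them.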

How the data were processed

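RNA was extracted with hot phenol, poly-A RNA was selected, and single libraries were sequenced by a method that does not mark strand, so that overlapping and antisense genes cannot be told apart. The authors mapped reads to S288c with Bowtie (version 0.12.7 per the submitters' processing notes), called SNPs with SAMtools, used them to amend earlier low-coverage genomes of the strains, mapped again to these, kept unique reads without mismatch, and normalized counts per gene with EDASeq (upper quartile between libraries, loess on GC content within them). The deposited values are these normalized read counts rounded to whole numbers, treated here as a score and not as raw counts. They sum to 63253487 to 67038479 per strain with an upper quartile of 6442 in each, so they do not themselves show the sequencing depth. The study lists reads per library and raw counts per gene apart from these values. Those were not used here, and no counting interval is given. The deposited tables also hold the authors' own fold changes and p-values from DESeq, which were not used. The hybrids' table was used for allelic ratios only.

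Genes averaging 10 or more across the 5 libraries were compared on log2(value + 1) with limma 3.58.1 (R 4.3.3, moderated test with a mean-variance trend, 2-sided, Benjamini-Hochberg adjustment over 5792 genes, threshold 0.05). Summaries used numpy 2.4.6 and pandas 2.3.3 under Python 3.11.15, and plots used matplotlib 3.10.9. Each strain gave 1 culture, so p-values measure the spread between strains of a population. The members and lists were chosen with earlier results of these data known, and a gene may stand in several lists. The genes named were the 12 with the largest change in each direction among 599 called genes with at least 10 in every strain and no overlap, the 3 members of each list with the smallest adjusted *P* in each direction, the member of smallest *P* in a list without a call, and *URA3* and *HO*. All other genes given, among them the regulators *GCN4*, *LYS14*, *ARO80* and *ZAP1*, *GPP2*, *GPD2*, *TPS2*, *LYS2*, *LYS9* and the genes of neighbouring runs, were named after their values were seen. A few genes that the rule names are not reported here. Names, neighbours, distances to chromosome ends, repeated 100-base windows and promoters come from the S288C assembly R64 of RefSeq, where 5792 of 5797 identifiers were found, and no coordinate is printed because the strain genomes behind the values were not used here and S288c is named without a version. Alternatives were other pseudocounts (0.5 and 10), no filter and a minimum mean of 100, median-ratio and quantile scaling, no mean-variance trend and leaving out each strain.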

Additional observations from a re-analysis of the deposited data

How the results depend on the processing

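No called gene changed direction under any alternative. Medians of lists near 0 did, and without BC187 the median log2 fold change was 0.029 for ribosome biogenesis and -0.016 for the respiratory chain, while *HO*, not called, stood at -0.31 without RM11-1. The number of genes called was 636 and 628 with pseudocounts of 10 and 0.5, 626 without a filter and 629 with a minimum mean of 100. It was 659 with median-ratio scaling, 706 with quantile normalization and 557 without a mean-variance trend. An alternative chosen after the values were seen gave 556, leaving out genes with a step of at least 0.1 beside their value, high or low. Leaving out each strain gave 108 to 1012 calls, with 39 to 567 higher and 65 to 445 lower in Malaysian yeast, and the share of calls that were higher was 46.5% in the full data, 36.1% when UWOPS03.461.4 was left out and 56.0% without RM11-1. By list, leave-one-out calls ranged from 0 to 3 for glycerol, 0 to 16 for the respiratory chain, 0 to 3 for trehalose, 2 to 15 for the stress response, 2 to 8 for lysine, 1 to 3 for histidine, 0 to 6 for the Ehrlich pathway, 3 to 7 for permeases, 0 to 17 for ribosome biogenesis, 2 to 7 for phosphate, 1 to 7 for copper and zinc, 1 to 4 for pumps, 2 to 8 for efflux, 0 to 4 for purines, 0 to 3 for meiosis and 4 to 14 for the telomere-linked families. The respiratory chain had 1 call with quantile normalization and 1 without a trend, trehalose had 1 and ribosome biogenesis 4 with median-ratio scaling, and ribosome biogenesis had 3 and purine synthesis 3 without a trend. The cause of these shifts was not tested.

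Of 158 genes named by rule, 117 lost their call without UWOPS03.461.4, 113 without UWOPS05.227.2, 45 without UWOPS05.217.3, 40 without BC187 and 23 without RM11-1, against 4 with median-ratio scaling, 11 with quantile normalization and 14 without a trend. No paired analysis was possible because the strains are separate isolates whose replicate numbers only name them. With 3 strains against 2 and 1 culture each, a population cannot be told apart from the isolates that stand for it. The read numbers that the study lists per library were not used.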
